A study of Homo sapiens with 21 samples.

Results

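The chromatin accessibility of GATA2 and GATA3, which encode zinc-finger transcription factors, was examined in SK-N-BE(2) cells, a line established from a human neuroblastoma. ATAC-Seq was used, in which the Tn5 transposase cuts open DNA, so that reads accumulate over accessible sites. Of 367900 consensus sites, 23 carried the name of one of these genes as the gene with the nearest annotated transcription start site (TSS). GATA2 had 3 sites and GATA3 had 20. Cells were transduced with lentiviral shRNAs and profiled 72 h later, in 7 groups of 3 libraries. The groups were Control (a non-silencing shRNA), shARID1A.2 and shARID1A.4 against ARID1A, shARID1B.2 and shARID1B.3 against ARID1B, and the combinations shARID1A/B.2.3 and shARID1A/B.4.2 against both genes. All groups carried a lentiviral shRNA. The sources used here do not say whether libraries of a group came from separate transductions, so p-values measure the spread between these libraries, which may be technical.

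GATA factors bind DNA through zinc fingers that recognise a short GATA-containing sequence. GATA2 is best known for its role in blood stem cells, and GATA3 for its role in T cells and in the development of sympathetic neurons. In adrenergic neuroblastoma both belong to the core regulatory circuit of transcription factors, together with factors such as HAND2 and ISL1. ARID1A and ARID1B are large structural subunits of the BAF chromatin remodeller, which moves and evicts nucleosomes.

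Accessibility is given as CPM, the counts-per-million scale, relative to the TMM-adjusted library total. Sites are termed closed when accessibility was lower, and opened when it was higher, with an FDR (the Benjamini-Hochberg adjusted p) below 0.01 in the edgeR quasi-likelihood test over 357029 tested sites. All FDR values are from that test unless another is named, and each change is a log2 difference with its standard error (SE). The libraries held 16140029 to 44472230 reads in sites. Among defining markers of adrenergic neuroblastoma, the promoter sites of HAND2 and TH measured 43.9 and 2.43 CPM in Control, and 4 mesenchymal markers had sites of 7.63 to 27.3 CPM. Of the blood markers, SPI1 had its nearest site at 4.71 CPM, PTPRC at 1.26 CPM and CD79A had none. The nearest site of the liver marker ALB measured 0.178 CPM. Accessibility near these genes does not measure their expression.

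The first 2 stretches are the centres of sites that closed when both ARID1 genes were silenced, and the last is the DNA just upstream of the GATA2 start, where accessibility rose. They were read from the GRCh38 reference, 300 bases each, 5′ to 3′. Capitals mark matches to GATA motifs (on either strand, AGATAA and AGATAG as well as TGATAA and also TGATAG). The first was chr3:128495482-128495781 (minus strand), the next chr10:7972146-7972445 (plus strand) and the last chr3:128493202-128493501 (minus strand).
GATA2 2.4 kb upstream: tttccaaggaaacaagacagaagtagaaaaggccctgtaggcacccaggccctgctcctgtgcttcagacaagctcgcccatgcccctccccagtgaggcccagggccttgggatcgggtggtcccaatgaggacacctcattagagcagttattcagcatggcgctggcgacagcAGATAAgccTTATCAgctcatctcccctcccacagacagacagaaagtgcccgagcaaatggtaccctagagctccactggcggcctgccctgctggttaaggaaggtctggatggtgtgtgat
GATA3 73.2 kb upstream: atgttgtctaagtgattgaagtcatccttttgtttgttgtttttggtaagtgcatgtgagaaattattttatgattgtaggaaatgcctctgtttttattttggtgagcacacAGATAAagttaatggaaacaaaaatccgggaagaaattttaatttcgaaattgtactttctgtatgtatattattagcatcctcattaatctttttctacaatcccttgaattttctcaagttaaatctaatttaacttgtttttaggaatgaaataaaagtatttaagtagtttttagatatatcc
GATA2 upstream of the start: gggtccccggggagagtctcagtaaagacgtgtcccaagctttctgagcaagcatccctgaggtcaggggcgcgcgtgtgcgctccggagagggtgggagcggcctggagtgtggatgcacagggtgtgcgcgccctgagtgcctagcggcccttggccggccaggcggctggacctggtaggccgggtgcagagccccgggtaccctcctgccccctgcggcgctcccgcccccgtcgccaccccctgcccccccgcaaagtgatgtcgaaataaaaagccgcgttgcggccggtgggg

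Both closed sites shown held AGATAA in this window, at base 177 of the GATA2 stretch (with TTATCA, which reads TGATAA on the other strand, at base 186) and at base 114 of the GATA3 stretch. Such a match is common. It was found in the central 300 bases of 11 of the 23 sites (47.8%) and of 40.5% of all 367899 sites read from the reference. The AP-1 motif (TGACTCA or TGAGTCA) was found at 1 of the 23 sites (4.35%) against 6.48% of all sites. Sites that opened held GATA matches too. Over its full length the GATA2 promoter site held 1 and the opened site 4.1 kb upstream of GATA2 held 6. The closed sites shown held 2 (GATA2 2.4 kb upstream) and 4 (GATA3 73.2 kb upstream), and these sites differ in length. A match is a description of the letters and was not tested for binding.

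GATA2 is a gene on the minus strand of chromosome 3, and its 3 sites lay close together. The promoter site (chr3:128492724-128493693, 970 bases) had its centre 21 bases from the annotated TSS. A second site (chr3:128495447-128495817, 371 bases) lay 2.4 kb upstream, in an intron of the noncoding gene RP11-475N22.4, and another (chr3:128496441-128498232, 1792 bases) lay 4.1 kb upstream, in its exon 3. GATA3 is on the plus strand of chromosome 10. Of its 20 sites, 15 lay in introns of the upstream neighbour TAF3, 3 were intergenic and 2 were in intron 1 of GATA3, and the farthest was 112.2 kb upstream. The annotation placed the GATA3 TSS at position 8045473, which is 9215 bases upstream of the canonical start in GENCODE (8054688), so the site at that promoter was named for the antisense gene GATA3-AS1 and is described separately.

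In Control, the GATA2 sites were more accessible than most. Per kb of site, the promoter measured 7.43 CPM, the site 2.4 kb upstream 9.97 CPM and the site 4.1 kb upstream 7.55 CPM, against a median of 1.38 CPM per kb over all tested sites and 6.46 CPM per kb over promoter sites. Among the GATA3 sites, those in intron 1 stood highest, with 7.56 CPM per kb at 0.5 kb downstream of the annotated TSS and 12.2 CPM per kb at 2.6 kb downstream. The other tested GATA3 sites lay between 0.731 and 2.45 CPM per kb.

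The main comparison asked how accessibility changed when ARID1A and ARID1B were silenced together, as the mean of both combinations against Control. At GATA2 the site 2.4 kb upstream closed, whereas the promoter and the site 4.1 kb upstream opened. At GATA3, 2 distal sites in TAF3 introns closed and none opened. Over both genes 3 of 21 tested sites closed (14.3%, against 10.3% of all tested sites) and 2 opened (9.52%, against 3.43%), with 9 sites at an unadjusted p under 0.05. Over all 9 comparisons with Control, 8 of the 21 were called at least once and 13 were not. No share of all tested sites is given for this count. The same holds for counts at an unadjusted p, here and below, so both are descriptions only. In the combined comparison the median log2 change was -0.03, against 0.03 over all tested sites. With 21 sites, 1 site is 4.76% of them. Untested were 2 GATA3 sites with 2 to 17 reads per library, 109.6 kb and 18.5 kb upstream.

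The site 2.4 kb upstream of GATA2 measured 3.61, 2.79 and 4.69 CPM in the Control libraries, 2.23, 1.74 and 2.15 with shARID1A/B.2.3, and 2.33, 1.84 and 2.09 with shARID1A/B.4.2. All 6 combination libraries were below every Control library. The combined log2 change was -0.85 (SE 0.14, FDR 1.05e-06), and accessibility fell by 44.7%. It fell to a like extent with each combination, by 0.88 with shARID1A/B.2.3 (FDR 9.86e-06) and by 0.83 with shARID1A/B.4.2 (FDR 0.000122), and the combinations differed by -0.05 (95% interval -0.41 to 0.30). Without Control replicate 3, the highest library, the change with shARID1A/B.4.2 was -0.61 (FDR 0.0192).

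Neither ARID1 gene silenced alone gave a call at that site. The libraries of shARID1A.2 measured 3.17, 3.13 and 2.92 CPM, those of shARID1A.4 3.62, 4.02 and 3.69, those of shARID1B.2 3.93, 3.50 and 3.04, and those of shARID1B.3 3.54, 3.15 and 3.02. They overlapped Control and all lay above the combination libraries. The log2 change was -0.12 (95% interval -0.39 to 0.15) for ARID1A silencing, the mean of its 2 hairpins, and -0.14 (-0.40 to 0.12) for ARID1B silencing. The difference itself was tested, and accessibility was lower with combined than with single silencing by -0.72 on the log2 scale (SE 0.11, edgeR FDR 6.67e-08). Of the 21 sites, 4 were lower in that comparison (19.0%, against 6.85% of all tested sites) and 0 were higher (against 0.969%). The other sites called lower were all at GATA3. At each of them some combination libraries overlapped those of single hairpins, so the pooled difference did not hold for every group.

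**Figure D1:**
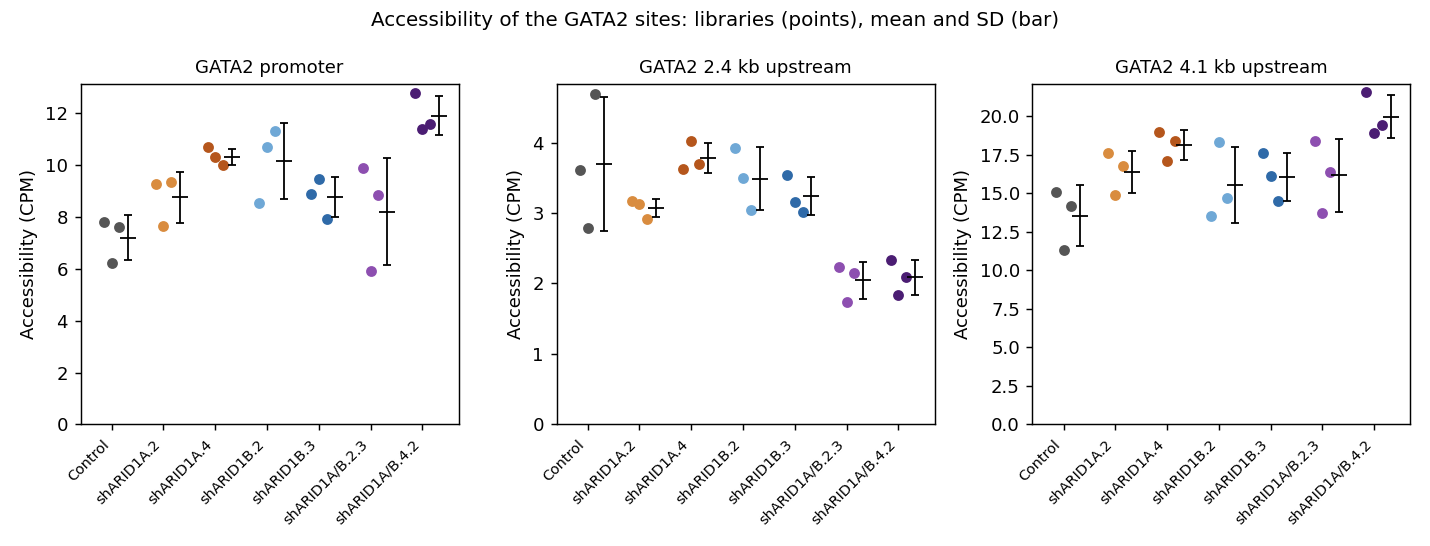
Accessibility of the 3 GATA2 sites in CPM (vertical axes, from 0) by group (horizontal axes). Points are libraries, and the bar beside them is the mean with its SD (n = 3). At 2.4 kb upstream the 6 combination libraries, 1.74 to 2.33 CPM, sit below all other libraries, whereas at the promoter and at 4.1 kb upstream shARID1A/B.4.2 is the highest group.

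The GATA2 promoter moved the other way. It measured 7.79, 6.21 and 7.62 CPM in Control, 9.88, 5.90 and 8.84 with shARID1A/B.2.3, and 12.8, 11.4 and 11.6 with shARID1A/B.4.2. The libraries of shARID1A/B.4.2 were above all Control libraries, and those of shARID1A/B.2.3 spanned the Control range. The combined log2 change was 0.45 (SE 0.11, FDR 0.0014), made up of 0.73 with shARID1A/B.4.2 (FDR 3.98e-06) and 0.17 with shARID1A/B.2.3 (FDR 0.392). The combinations differed by -0.56 (SE 0.12, edgeR FDR 0.000593), or by -0.36 (FDR 0.0592) without shARID1A/B.2.3 replicate 2, the lowest library.

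The promoter was also called opened by some single hairpins. With shARID1A.4 it measured 10.3 ± 0.33 CPM (SD, n = 3), with a log2 change of 0.52 (FDR 0.00289), and with shARID1B.2 the libraries measured 8.53, 10.7 and 11.3 CPM (0.50, FDR 0.00845). All 6 libraries were above the Control range. The call with shARID1A.4 was lost without Control replicate 2 (0.44, FDR 0.0262) or its own replicates 1 (FDR 0.0160) or 2 (FDR 0.0139). That with shARID1B.2 was lost with DESeq2 (FDR 0.0291), without any 1 Control library (FDR 0.0121, 0.0658 and 0.0156) and without its own replicates 2 (FDR 0.0465) or 3 (FDR 0.119). Scaling on promoter sites also ended both calls (0.28, FDR 0.0919, and 0.42, FDR 0.0126). With shARID1A.2 and shARID1B.3 the changes were 0.28 (FDR 0.207) and 0.29 (FDR 0.123). Promoter sites as a class shifted upward, since 33.4% of 12310 tested promoter sites opened and 4.24% closed after combined silencing, with a median log2 change of 0.23. Promoter sites held 20.0% to 20.6% of the reads in Control libraries and 23.4% to 25.1% in those of the combinations. When libraries were scaled on promoter sites the combined change at the GATA2 promoter was 0.21 (FDR 0.123). The part of that shared shift in the GATA2 value was not tested further.

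The site 4.1 kb upstream of GATA2 was the broadest and strongest of the 3. It measured 15.1, 11.3 and 14.2 CPM in Control, 18.4, 13.7 and 16.4 with shARID1A/B.2.3, and 21.6, 18.9 and 19.4 with shARID1A/B.4.2. Of the combinations, only shARID1A/B.4.2 cleared the Control range in all its libraries. The combined log2 change was 0.41 (SE 0.10, FDR 0.000509), with 0.57 for shARID1A/B.4.2 and 0.25 (FDR 0.0905) for shARID1A/B.2.3. It was also called opened with shARID1A.4 (0.42, FDR 0.00432) and by ARID1A silencing (0.35, FDR 0.00673), a call lost with DESeq2 (FDR 0.0120) and without Control replicates 2 (0.26, FDR 0.112) or 3, shARID1A.2 replicates 1 or 3 or shARID1A.4 replicate 3 (0.33 to 0.39). The call with shARID1A.4 was lost without Control replicate 2 (0.33, FDR 0.0573) and without its own replicates 1 (FDR 0.0239) or 3 (FDR 0.0192). Scaling on promoter sites ended all 4 calls, leaving 0.18 (FDR 0.0983) for combined silencing, 0.24 (FDR 0.0350) for shARID1A/B.4.2, 0.19 (FDR 0.171) for shARID1A.4 and 0.17 (FDR 0.157) for ARID1A silencing. Control replicate 2 was the lowest Control library at the promoter and at this site, and without it neither was called (0.38, FDR 0.0209, and 0.32, FDR 0.0173).

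Among the sites named for GATA3, the combined comparison called distal sites only. Sites inside the gene that carry the name GATA3-AS1 also closed and are described below. The site 104.5 kb upstream (chr10:7940146-7941813, intron 2 of TAF3) measured 2.60, 2.26 and 3.37 CPM in Control, 1.54, 1.32 and 1.71 with shARID1A/B.2.3, and 2.02, 1.84 and 1.81 with shARID1A/B.4.2. The combination libraries were all below the Control libraries. The combined log2 change was -0.71 (SE 0.15, FDR 0.000147), with -0.88 for shARID1A/B.2.3 (FDR 4.67e-05) and -0.54 for shARID1A/B.4.2 (FDR 0.0256). Combined silencing was lower than single silencing by -0.48 (edgeR FDR 0.000914), but the single hairpins differed. The libraries of shARID1A.2 (1.99, 1.83 and 2.02 CPM) and shARID1B.3 (1.93, 1.91 and 1.97) were also below every Control library and overlapped shARID1A/B.4.2. Those of shARID1A.4 (3.34, 3.05 and 3.38 CPM) and shARID1B.2 (2.37, 2.48 and 2.67) overlapped Control. Without Control replicate 3, the highest Control library, the combined change was -0.53 (FDR 0.0311), and without shARID1A/B.2.3 replicate 2 the difference from single silencing was -0.42 (FDR 0.0119).

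The site 73.2 kb upstream (chr10:7971743-7972850, intron 3 of TAF3) closed less firmly. It measured 1.49, 2.18 and 1.92 CPM in Control, 1.05, 0.720 and 1.06 with shARID1A/B.2.3, and 1.66, 1.98 and 1.30 with shARID1A/B.4.2, from 24 to 70 reads per library over all groups. Only shARID1A/B.2.3 lay below the Control range. Its log2 change was -1.04 (SE 0.22, FDR 8.27e-05), against -0.19 for shARID1A/B.4.2, and the combinations differed by -0.85 (edgeR FDR 0.00604), a call lost with DESeq2 (FDR 0.0145), with scaling on promoter sites (-0.66, FDR 0.0485) and without shARID1A/B.2.3 replicate 2 (-0.66, FDR 0.106) or shARID1A/B.4.2 replicates 1 (-0.86, FDR 0.0227) or 2 (-0.71, FDR 0.0777). The combined change of -0.62 (FDR 0.00787) did not pass with DESeq2 (FDR 0.0311) or without a filter on low counts (FDR 0.0111), and was also lost without Control replicate 2 (-0.46, FDR 0.132), Control replicate 3 (FDR 0.0400), shARID1A/B.2.3 replicate 2 (-0.48, FDR 0.0522), shARID1A/B.4.2 replicate 1 (FDR 0.0192) or shARID1A/B.4.2 replicate 3 (FDR 0.0284). Against single silencing the combined value was lower by -0.67 (edgeR FDR 3.95e-05), but the single hairpins differed here too. The libraries of shARID1B.2 (2.75, 3.10 and 3.22 CPM) lay above Control, and those of shARID1A.4 (2.66, 1.99 and 2.13) overlapped it. Those of shARID1A.2 (1.68, 1.42 and 1.39 CPM) and shARID1B.3 (1.45, 1.56 and 1.22) overlapped shARID1A/B.4.2.

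**Figure D2:**
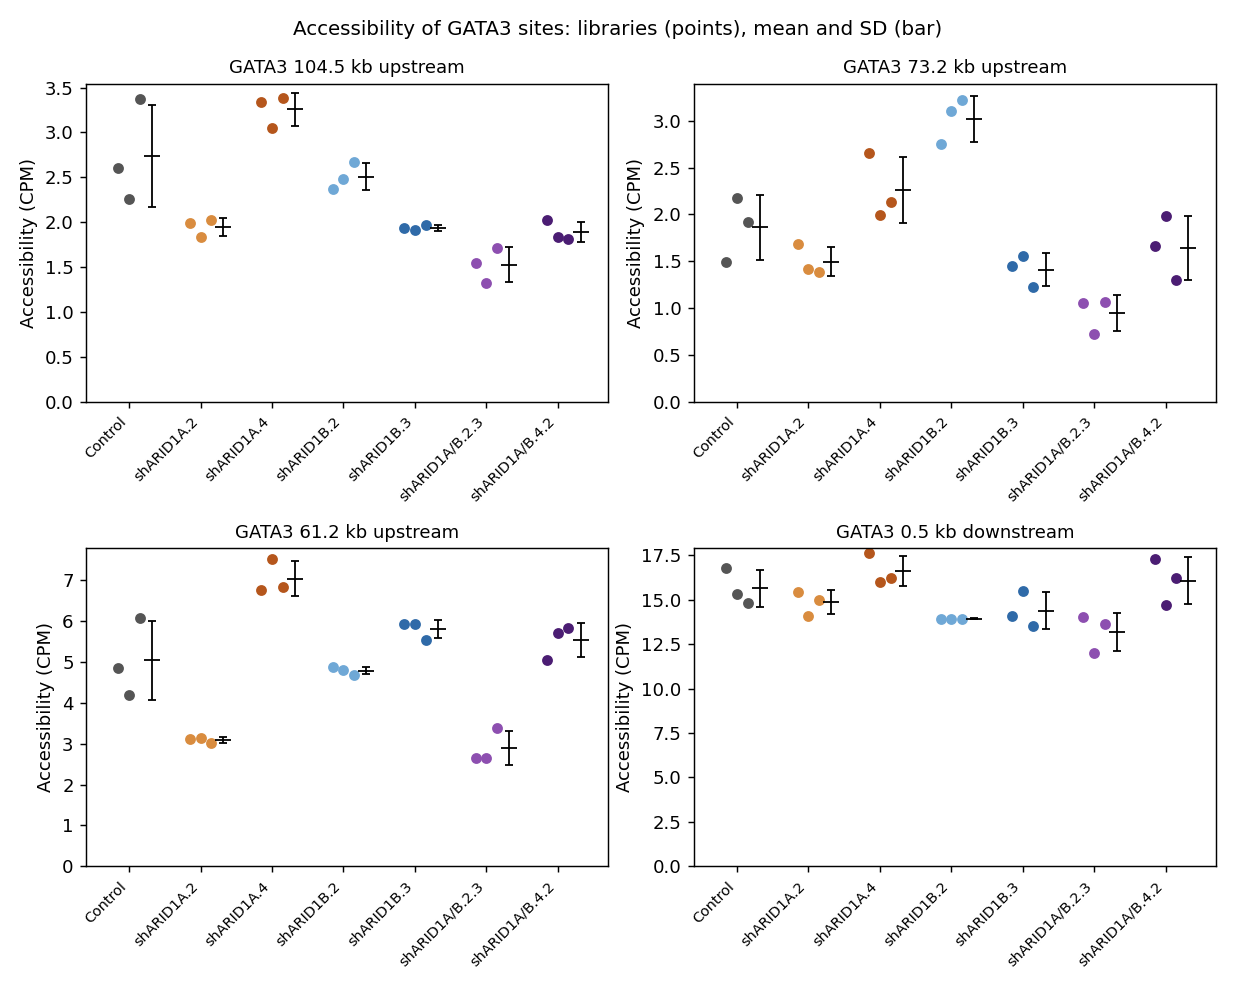
Accessibility of 4 GATA3 sites in CPM (vertical axes, from 0) by group (horizontal axes), with libraries as points and the mean with its SD (n = 3) beside them. At 61.2 kb upstream shARID1A.2 and shARID1A/B.2.3 sit at 2.65 to 3.39 CPM, below the Control libraries, and shARID1A.4 sits at 6.77 to 7.53 CPM, above them. At 0.5 kb downstream all groups lie between 12.0 and 17.6 CPM.

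The largest difference between hairpins was at the site 61.2 kb upstream of GATA3 (chr10:7982900-7985704, intron 4 of TAF3, 2805 bases). Control libraries measured 4.86, 4.19 and 6.09 CPM. The libraries of shARID1A.2 measured 3.12, 3.13 and 3.01 CPM and those of shARID1A/B.2.3 measured 2.66, 2.65 and 3.39 CPM, all below Control. Those of shARID1A.4 measured 6.77, 7.53 and 6.83 CPM, all above it, and those of shARID1A/B.4.2 measured 5.06, 5.71 and 5.84 CPM, within its range. If the numbers in the combination names are those of the single hairpins, which no label states, the low groups share the ARID1A hairpin number 2, and shARID1A.4 and shARID1A/B.4.2 share the number 4. On that reading the combinations also differ in their ARID1B hairpin. Between the combinations, the ARID1A and the ARID1B hairpin therefore cannot be told apart.

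The log2 changes at that site were -0.71 with shARID1A.2 (FDR 0.000194), -0.83 with shARID1A/B.2.3 (FDR 1.54e-06), 0.48 with shARID1A.4 (FDR 0.00765) and 0.13 with shARID1A/B.4.2 (FDR 0.613). The mean of both combinations was therefore -0.35 and not called (FDR 0.0257). The combinations differed by -0.96 (SE 0.14, edgeR FDR 1.41e-07). The 2 ARID1A hairpins, a comparison added after these values had been seen, differed by -1.19 (SE 0.14, edgeR FDR 4.34e-10). Both differences kept their direction and stayed below an FDR of 0.01 in each alternative run. The rise with shARID1A.4 was lost with DESeq2 (FDR 0.0106), with scaling on promoter sites and without Control replicates 1 or 2 or any of its own libraries. The fall with shARID1A.2 was lost without Control replicate 3 (-0.55, FDR 0.0208).

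Over all 21 sites, 3 were lower with shARID1A/B.2.3 than with shARID1A/B.4.2 (14.3%, against 3.79% of all tested sites) and 0 were higher (against 1.43%). In the added comparison of shARID1A.2 with shARID1A.4, 4 were lower (19.0%, against 1.84%) and 0 were higher (against 0.737%). These 4 were all GATA3 sites, at 104.5, 99.9 and 61.2 kb upstream and 2.6 kb downstream, and the fall at 99.9 kb was -0.89 (edgeR FDR 0.000264). In 16 of 18 GATA3 sites the value of this difference was below 0, a count given without the share of all tested sites. Over all tested sites the median difference was 0.0091 with DESeq2. It was 0.12 with edgeR when libraries were scaled on promoter sites, so such a count of signs depends on the scaling. The sites share libraries and scaling, and the count was not tested. The 2 ARID1B hairpins, also compared afterwards, differed at 3 GATA3 sites, 1 lower (4.76%, against 2.96%) and 2 higher (9.52%, against 4.25%). With shARID1B.2 the site 73.2 kb upstream was higher than with shARID1B.3 by 1.07 (edgeR FDR 4.89e-06), that at 88.5 kb was higher by 1.15 and that at 99.9 kb was lower by -0.91.

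**Figure D3:**
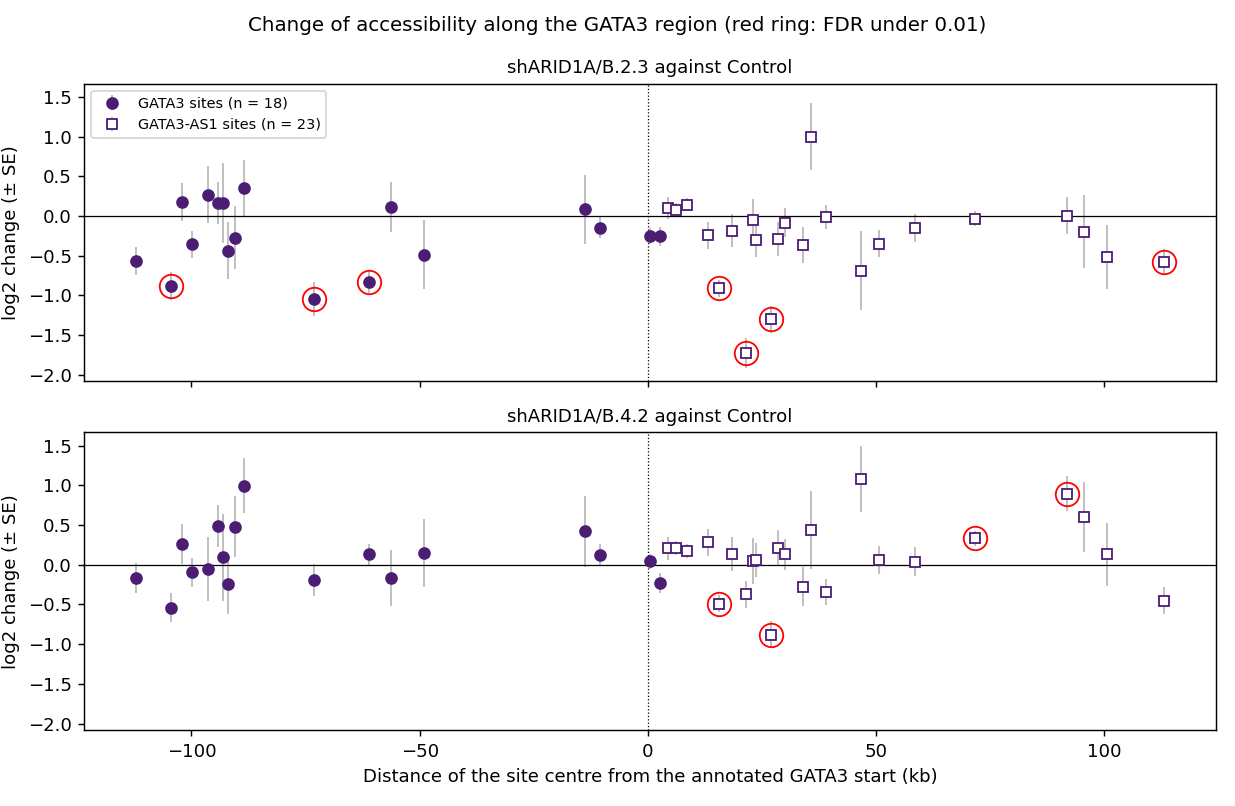
Log2 change of each tested site against Control (vertical axes, with SE) by its distance in kb from the annotated GATA3 start (horizontal axis, negative is upstream) for shARID1A/B.2.3 (top) and shARID1A/B.4.2 (bottom). Filled circles are the 18 GATA3 sites, open squares the 23 sites named GATA3-AS1, and red rings mark an FDR under 0.01. The GATA3 sites ringed with shARID1A/B.2.3, at -0.83 to -1.04, carry no ring with shARID1A/B.4.2.

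Each combination alone gave a different set of calls. With shARID1A/B.2.3, 4 sites closed (19.0%, against 10.4% of all tested sites) and 0 opened (against 2.85%). They were the GATA2 site 2.4 kb upstream and the GATA3 sites 104.5, 73.2 and 61.2 kb upstream, and no alternative run ended any of these calls. Same-numbered libraries of Control and shARID1A/B.2.3 deviated together, and in a fit of these 2 groups with the replicate number as a block 6 sites closed and 1 opened. That fit also called more of all sites, with 41930 of 328819 lower and 18003 higher, against 30971 and 5686 in the same fit without the block. The added calls were the GATA3 sites 112.2 kb upstream (-0.56, edgeR FDR 0.00694) and 0.5 kb downstream (-0.26, edgeR FDR 0.00159), and the rise 4.1 kb upstream of GATA2 (0.25, edgeR FDR 0.00157). With shARID1A/B.4.2, 1 site closed (4.76%, against 7.37%) and 2 opened (9.52%, against 3.97%), all at GATA2, and 0 of 18 GATA3 sites were called (2 had an unadjusted p under 0.05).

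The sites in intron 1 of GATA3 were not called in the combined comparison. The site 0.5 kb downstream of the annotated TSS (chr10:8044902-8046969) measured 16.8, 15.3 and 14.8 CPM in Control, 14.0, 12.0 and 13.6 with shARID1A/B.2.3, and 17.3, 14.7 and 16.2 with shARID1A/B.4.2. The libraries of shARID1A/B.2.3 lay below every Control library and those of shARID1A/B.4.2 overlapped Control, and the combined log2 change was -0.10 (FDR 0.465). The site 2.6 kb downstream (chr10:8047791-8048438) measured 8.71, 7.52 and 7.42 CPM in Control, 6.50, 6.32 and 6.99 with shARID1A/B.2.3, and 5.82, 7.13 and 7.19 with shARID1A/B.4.2. All 6 combination libraries lay below every Control library there, as did those of shARID1A.2 (5.16, 5.32 and 7.05 CPM) and shARID1B.2 (6.49, 6.72 and 7.08 CPM), and the combined change was -0.24 (FDR 0.0979). The farthest site, 112.2 kb upstream (chr10:7932385-7934076), changed by -0.37 (FDR 0.0951). Scaling on promoter sites moved the median of all tested sites from 0.03 to -0.20, and these 3 sites and the one 61.2 kb upstream were then called closed.

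Silencing of a single ARID1 gene gave few calls. ARID1A silencing opened 1 of 21 sites (4.76%, against 1.67% of all tested sites) and closed 0 (against 5.37%), with 4 sites at an unadjusted p under 0.05. ARID1B silencing opened 0 (against 1.39%) and closed 0 (against 3.53%), with 5 at an unadjusted p under 0.05. ARID1A and ARID1B silencing gave no site that passed in their direct comparison, with 0 lower (against 3.69%) and 0 higher (against 1.05%) by edgeR and by DESeq2, and 3 at an unadjusted p under 0.05 by edgeR.

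By hairpin, shARID1A.2 closed 1 site (against 4.54% of all tested sites) and opened 0 (against 0.834%). With shARID1A.4, 3 opened (against 2.28%) and 0 closed (against 4.17%). With shARID1B.2, 2 opened (against 1.34%) and 0 closed (against 1.84%). With shARID1B.3, 1 opened (against 3.12%) and 0 closed (against 4.88%). Those not yet described were weak GATA3 sites. At 88.5 kb upstream shARID1B.2 measured 0.805, 1.35 and 1.38 CPM, against 0.337, 0.411 and 0.601 in Control (log2 change 1.35, FDR 0.00431). At 93.0 kb upstream shARID1B.3 measured 0.614, 0.909 and 0.336 CPM, against 0.192, 0.164 and 0.281 in Control (1.60, FDR 0.00298). The shARID1B.2 and shARID1B.3 libraries lay above Control at these sites, which held 7 to 30 and 3 to 39 reads per library. Neither call passed with DESeq2 (FDR 0.0217 and 0.0385), with scaling on promoter sites (FDR 0.0104 and 0.0127) or without Control replicates 1 (FDR 0.0363 and 0.0166) or 2 (FDR 0.0202 and 0.0255). The call at 88.5 kb was also lost without shARID1B.2 replicates 2 (FDR 0.0304) or 3 (FDR 0.0562), and that at 93.0 kb without shARID1B.3 replicate 2 (FDR 0.0954).

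**Figure D4:**
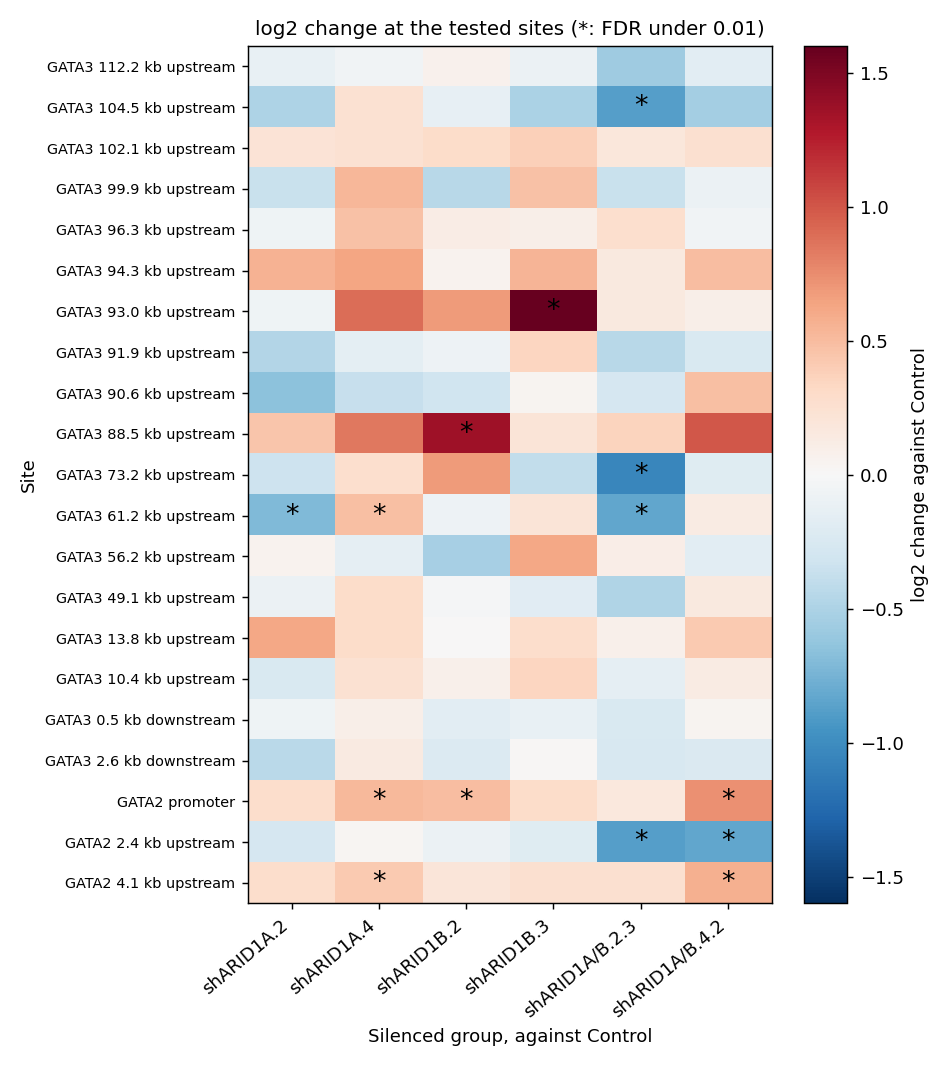
Log2 change against Control (colour, blue lower and red higher) of the 21 tested sites (rows) in the 6 silenced groups (columns). Asterisks mark an FDR under 0.01. The site 2.4 kb upstream of GATA2 is marked in both combinations and in no single-hairpin group, and the site 61.2 kb upstream of GATA3 is marked lower with shARID1A.2 and shARID1A/B.2.3 and higher with shARID1A.4.

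Summed over its tested sites, GATA3 measured 49.2, 44.1 and 49.9 CPM in Control. The sum was 40.5, 39.4 and 43.0 CPM with shARID1A.2 and 40.1, 34.1 and 41.2 CPM with shARID1A/B.2.3. It was 55.4, 54.6 and 57.2 CPM with shARID1A.4 and 47.6, 47.4 and 47.6 CPM with shARID1A/B.4.2. The order of the groups was shARID1A.4, shARID1B.3 (49.7 ± 2.61 CPM, SD, n = 3), Control (47.7 ± 3.20), shARID1A/B.4.2 (47.6 ± 0.095), shARID1B.2 (46.2 ± 0.75), shARID1A.2 (41.0 ± 1.88) and shARID1A/B.2.3 (38.4 ± 3.81). The libraries of shARID1B.3, Control and shARID1A/B.4.2 overlapped, those of shARID1B.2 lay just below shARID1A/B.4.2 and within the Control range, and the last 2 groups overlapped each other.

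GATA2 summed to 26.5, 20.3 and 26.5 CPM in Control and was highest with shARID1A/B.4.2 (36.7, 32.1 and 33.1 CPM) and shARID1A.4 (33.2, 31.3 and 32.1 CPM). It measured 29.2 ± 3.22 CPM with shARID1B.2, 28.2 ± 2.28 with shARID1A.2, 28.1 ± 2.35 with shARID1B.3 and 26.4 ± 4.66 with shARID1A/B.2.3 (SD, n = 3 each). The 2 highest groups overlapped each other, as did the other groups with Control. The GATA2 and GATA3 sums correlated with r = 0.52 on the log2 scale over the 21 libraries. Among 9089 genes with at least 10 tested sites, the sums most like that of GATA2 were those of GPR56 (r = 0.95), DNAJB12, ISYNA1, UBE2K and CLNS1A (r = 0.94 for the last). Those most like GATA3 were TEAD1 (r = 0.95), NT5C3A, NEFL, GPR22 and LOC101927578 (r = 0.93). These values are descriptions, since the points share groups, scaling and depth.

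**Figure D5:**
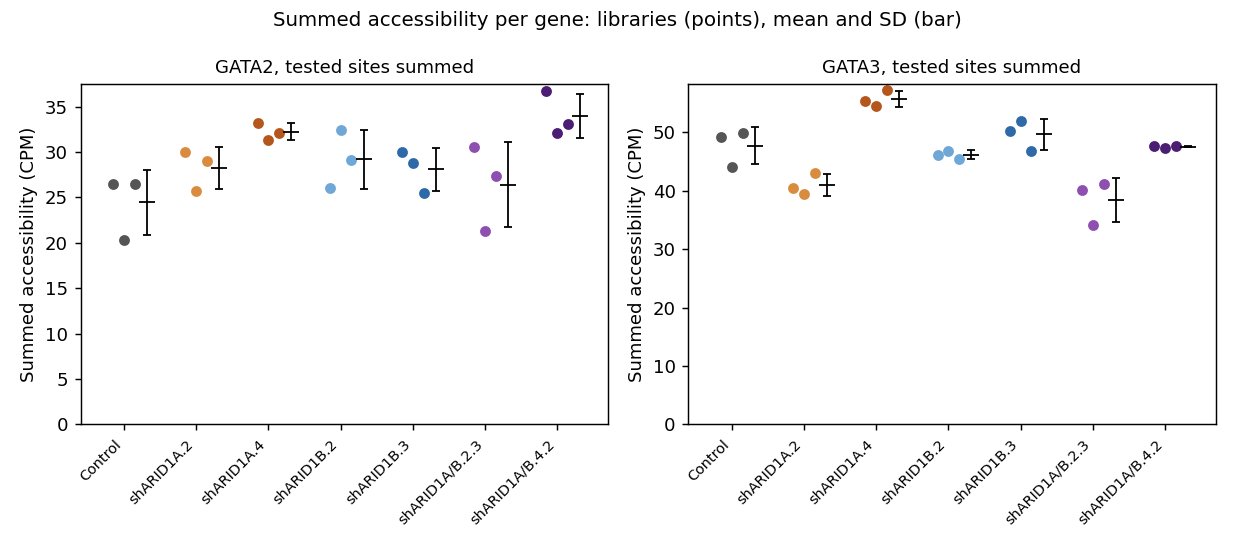
Accessibility summed over the tested sites of GATA2 (left) and GATA3 (right) in CPM (vertical axes, from 0) by group, with libraries as points and the mean with its SD (n = 3) beside them. For GATA3, shARID1A.2 and shARID1A/B.2.3 lie at 34.1 to 43.0 CPM and shARID1A.4 at 54.6 to 57.2 CPM, on either side of Control. Sites named for GATA3-AS1 are not in the GATA3 sum.

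The site at the canonical GATA3 promoter (chr10:8053257-8054870) carried the name of GATA3-AS1, the antisense gene that starts beside GATA3. It measured 35.4, 35.0 and 32.3 CPM in Control, 37.5, 39.7 and 35.9 with shARID1A/B.2.3, and 39.7, 37.6 and 38.2 with shARID1A/B.4.2. The combination libraries were above Control in all 6 cases, but the change of 0.16 was not called (SE 0.07, FDR 0.137). Of the 10 sites in the GATA3 gene that carry this name, 3 closed (against 10.3% of all tested sites) and 0 opened (against 3.43%). They lay in introns 3, 4 and 5 of GATA3 and fell by 0.70 (chr10:8059941-8062179, FDR 7.52e-10), 1.05 (chr10:8066696-8067291, FDR 1.53e-08) and 1.09 (chr10:8071928-8072962, FDR 1.82e-09) on the log2 scale.

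At the intron 4 site the same groups were low as at the site 61.2 kb upstream. It measured 2.65, 3.58 and 3.89 CPM in Control, 1.95, 1.34 and 1.62 with shARID1A.2, and 1.08, 0.906 and 1.14 with shARID1A/B.2.3. It measured 3.20, 3.56 and 4.13 CPM with shARID1A.4 and 2.55, 2.67 and 2.64 with shARID1A/B.4.2. The shARID1A.2 and shARID1A/B.2.3 libraries were below all others at this site, and shARID1A.2 and shARID1A.4 differed by -1.14 (edgeR FDR 3.18e-06). The intron 3 site, by contrast, was called lower with both combinations (-0.91 and -0.49), with ARID1A silencing (-0.37, FDR 0.00201) and with ARID1B silencing (-0.33, FDR 0.00867). In GATA2, a further promoter site named for RP11-475N22.4 (chr3:128486731-128490656) opened by 0.44 (FDR 4.02e-05), as did 33.4% of all tested promoter sites. The other site of that name, in intron 4 of GATA2, measured 4.41 to 5.81 CPM with the combinations and 5.67 to 6.64 in Control.

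Sites of related genes were counted in the combined comparison for context, to be read against 10.3% closed and 3.43% opened of all tested sites. By rule, genes with the largest share of called sites in a list could be named, so they need not be typical of it. No total is given here for the core circuit list. ISL1, a LIM homeodomain factor of the core circuit, had 5 of 23 tested sites closed and 0 opened, and LMO1, a LIM-only cofactor, had 5 of 33 closed and 0 opened. Among other GATA factors and cofactors, 24 of 379 closed (6.33%) and 5 opened, with 10 of 55 closed at ZFPM2, a GATA cofactor, and 0 of 11 at GATA4. No site carried the name GATA1. Among genes of noradrenaline synthesis and transport, 11 of 79 closed (13.9%) and 0 opened, with 3 of 5 at DBH, which makes noradrenaline from dopamine.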

How the data were processed

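ATAC-Seq libraries of SK-N-BE(2) cells were taken in the 7 groups of 3 that the labels give. The deposited raw read counts per consensus site were used, on a set of 367900 sites that the authors called on merged replicates of all groups. The labels name GRCh38 as the genome. Which aligner and peak caller made them, and whether reads were shifted for Tn5, is not stated here. The deposited tables also held normalized signal (counts divided by size factors) and the authors' own DESeq2 comparisons, neither of which was used. Gene names and the deposited distance score (bases from site centre to the nearest TSS) came from the authors' HOMER annotation, and a site carries its nearest gene, which need not be its target. CPM and SE were computed here.

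Counts were tested with edgeR 4.0.16 (R 4.3.3), using TMM scaling, filterByExpr (minimum count 10) and 1 model of all 21 libraries. The filter removed 10871 sites. The common biological coefficient of variation was 0.082, and all replicate pairs differed by more than counting noise (chi-square per degree of freedom 1.08 to 2.53). On simulated data for combined silencing against Control (348396 sites), 107 of 200 changed sites were recovered. Of the 109 with at least 1 CPM, 95 were recovered. The size of the changes put in is not given here, and recovery at the sites described above was not tested. TMM takes most sites as unchanged. Numbers paired libraries only for Control and shARID1A/B.2.3, by correlated deviations over 0.1 in all 3 pairs and not by any label. Alternatives were DESeq2 1.42.0, other scalings, no filter, a replicate block, an FDR under 0.05 and leaving out each library. Of 14 comparisons, 2 (between hairpins of 1 gene) were added later.

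The genes, lists and comparisons were chosen with earlier results of these data known. By rule, the text names per gene the site nearest the TSS, promoter sites, the 3 highest in Control, called sites of smallest p and the farthest site. The sites 99.9, 93.0 and 88.5 kb upstream of GATA3 and those named for the antisense genes were chosen after their values were seen. Some genes of the circuit list and the sequence of 1 site are not reported here.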

Additional observations from a re-analysis of the deposited data

Results flagged for a closer look

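Tests between silenced groups set 7 results apart. Between the combinations, accessibility was lower with shARID1A/B.2.3 than with shARID1A/B.4.2 by -0.96 on the log2 scale at the GATA3 site 61.2 kb upstream, by -0.56 at the GATA2 promoter and by -0.85 at the GATA3 site 73.2 kb upstream. Between combined and single silencing, accessibility was lower with the former by -0.72 at the GATA2 site 2.4 kb upstream. At the called GATA3 sites some combination libraries overlapped those of single hairpins. There the differences were -0.67 at 73.2 kb, -0.48 at 104.5 kb and -0.32 at 61.2 kb upstream. The last, GATA3 61.2 kb upstream, was lost on leaving out any of 5 libraries, among them shARID1A/B.2.3 replicates 1 (-0.29, edgeR FDR 0.0227) and 2 (-0.28, FDR 0.0320), shARID1A/B.4.2 replicates 1 (-0.28, FDR 0.0335) and 2 (-0.33, FDR 0.0117) and shARID1A.4 replicate 2 (-0.31, FDR 0.0101), and that of GATA3 104.5 kb upstream without shARID1A/B.2.3 replicate 2 (-0.42, FDR 0.0119).

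The comparisons of 2 hairpins against the same gene, added after the other results had been seen, set a further 7 apart, all at GATA3. The value of shARID1A.2 minus shARID1A.4 was -1.19 at 61.2 kb, -0.89 at 99.9 kb and -0.74 at 104.5 kb upstream and -0.57 at 2.6 kb downstream. The value of shARID1B.2 minus shARID1B.3 was 1.07 at 73.2 kb, -0.91 at 99.9 kb and 1.15 at 88.5 kb upstream. Of the first 4, that at 104.5 kb was lost without any 1 shARID1A.2 library or without shARID1A.4 replicates 1 or 3 (edgeR FDR 0.0121 to 0.0358), and that at 2.6 kb downstream without shARID1A.2 replicates 1 or 2 or shARID1A.4 replicate 3 (edgeR FDR 0.0140 to 0.0249). Scaling on promoter sites ended both (-0.63, edgeR FDR 0.0308, and -0.46, FDR 0.0125). Of the last 3, that at 88.5 kb was lost with DESeq2 (FDR 0.0246) and without shARID1B.2 replicates 2 or 3 or shARID1B.3 replicate 1 (edgeR FDR 0.0301 to 0.0603).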

How the results depend on the processing

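Counts are of the 21 tested GATA2 and GATA3 sites. With libraries scaled on promoter sites, combined silencing closed 7 and opened 0 (3 and 2 as reported), shARID1A/B.2.3 closed 7 (4), shARID1A/B.4.2 closed 4 and opened 1 (1 and 2), ARID1A silencing opened 0 (1), ARID1B silencing closed 1 (0), shARID1A.2 closed 2 (1), shARID1A.4 opened 0 (3), shARID1B.2 opened 0 (2), shARID1B.3 closed 2 and opened 0 (0 and 1), and 2 were lower with shARID1A.2 than with shARID1A.4 (4). Of all 357029 tested sites, 56825 were then lower and 2601 higher after combined silencing, against 36610 and 12247 as reported. At an FDR under 0.05, shARID1A/B.4.2 closed 2 (1), ARID1A silencing opened 2 (1), ARID1B silencing opened 1 (0), shARID1A.2 closed 2 (1), shARID1B.3 closed 1 and opened 2 (0 and 1), 5 were lower with shARID1A/B.2.3 than with shARID1A/B.4.2 (3), and 2 were lower with shARID1B.2 than with shARID1B.3 (1). With DESeq2, ARID1A silencing, shARID1B.2 and shARID1B.3 each opened 0 (1, 2 and 1) and 1 was higher with shARID1B.2 than with shARID1B.3 (2). ARID1A silencing opened 2 (1) without a filter, with RLE size factors and with a replicate block, and ARID1B silencing opened 1 (0) without a filter and with the block. Beyond these values the cause was not tested.

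With a replicate block over all groups, 2 were lower with shARID1B.2 than with shARID1B.3 (1). In the fit of Control and shARID1A/B.2.3 alone, added after seeing the data, shARID1A/B.2.3 opened 1 with the replicate block (0 as reported). Other groups share only a number: 14 of 63 same-number pairs had a correlation over 0.1, and 13 of 21 libraries correlated best with their own number.

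Leaving out each library in turn, combined silencing closed 1 to 3 (1 without Control replicate 3) and opened 0 to 2 (0 without Control replicate 2), shARID1A/B.2.3 opened 0 to 1, shARID1A/B.4.2 closed 0 to 1 (0 without Control replicate 3) and opened 2 to 3, ARID1A silencing opened 0 to 2, ARID1B silencing opened 0 to 1, shARID1A.2 closed 0 to 2, shARID1A.4 opened 0 to 4, shARID1B.2 opened 0 to 2 and shARID1B.3 opened 0 to 2. Lower with shARID1A/B.2.3 than with shARID1A/B.4.2 were 1 to 4 (1 without shARID1A/B.2.3 replicate 2), with combined than with single silencing 2 to 4, and with shARID1A.2 than with shARID1A.4 2 to 4. Between shARID1B.2 and shARID1B.3, 1 to 2 were lower and 1 to 2 higher. Of the single sites named in the combined comparison, 109 values kept their direction and side of the threshold, 12 lost it, 5 gained it and 0 reversed.

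Counts of 1 to 39 reads limit the weakest GATA3 sites, with 3 libraries in each group. Names come from the nearest start and not from contacts. In bulk cells, fewer cells with an open site and a less open site in each cell cannot be told apart.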
